A study of Saccharomyces cerevisiae with 4 samples.

Results

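Mannosyltransferases add mannose to proteins and to the lipid precursors of protein glycans, and the 10 genes considered first are KTR2, OCH1, ALG9, MNN1, MNN9, MNN10, KRE2, KTR1, PMT1 and PMT2 of budding yeast. They were looked up by symbol in the platform's probe annotation, which names 353 genes on 724 of the 896 spots. It holds KTR2 (YKR061W), OCH1 (YGL038C), ALG9 (YNL219C), MNN9 (YPL050C) and KRE2 (YDR483W), 5 of the 10, each on 2 spots. The annotation names no spot for MNN1, MNN10, KTR1, PMT1 or PMT2, so these 5 were not analysed here. The chip, a dedicated array of cell wall genes, was hybridised 4 times with RNA of Saccharomyces cerevisiae BY4741 that lacks HOG1, the gene of a stress MAP kinase. Both RNAs on an array came from this deletion strain, grown in rich medium at 24 °C. One RNA came from the part of the culture given Congo Red at 30 µg/ml and the other from the part left without it. Both were collected at 4 h. Congo Red is a dye that binds chitin and glucan of the wall. Channel 2 carried the RNA of the treated cells on arrays 1 and 3, and channel 1 carried it on arrays 2 and 4.

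In yeast, N-linked glycans begin as a dolichol-linked oligosaccharide that is built at the membrane of the endoplasmic reticulum, partly by the ALG mannosyltransferases, and is then moved to the protein. In the Golgi, Och1 starts the outer chain, mannan polymerases lengthen it, and enzymes of the Kre2 family and others add branches. O-linked mannose is started in the endoplasmic reticulum by the Pmt proteins and extended in the Golgi by Kre2 family enzymes. The mannoproteins made in this way form the outer layer of the wall.

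Each value below is a deposited log2 ratio between the channels of an array. The sources used here give neither its numerator nor its dyes, and it is read as Congo Red over untreated. That direction is called likely because genes that cell wall stress is known to induce then have positive ratios, and on the other reading each sign would turn. Of 17 such genes listed from general knowledge, with results of these arrays known, 15 were tested, all 15 had a positive mean (0.40 for PIR1 to 3.32 for CWP1), and 12 were higher and 0 lower by the test described below. The list sets the direction and is no independent finding. Arrays of opposite channel order correlated positively over the 328 genes with 4 values (Pearson's r of 0.31 to 0.51, across genes, which are not independent replicates), and arrays of the same order at 0.705 and 0.766. The deposited signs were left unchanged on all arrays. A channel bias of single genes could also make such correlations positive, so they alone do not settle the signs. HOG1 itself had gene means of 1.43, -1.73, -0.23 and 1.25 on arrays 1 to 4, which checks nothing without the position of its probe. ACT1, the actin gene, averaged 0.06 ± 0.13 (SD, n = 4). The sources do not say whether separate cultures were used for the arrays, so p-values measure only the spread between arrays, which may be technical. In bulk RNA, fewer cells carrying a transcript and less of it per cell cannot be told apart.

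Among the 5 annotated genes, KTR2 and ALG9 were higher after Congo Red, while OCH1, MNN9 and KRE2 did not pass the test. The test was limma's moderated test of the gene's log2 ratio against 0, with Benjamini-Hochberg adjustment over all 348 genes with values on at least 3 arrays and a threshold of 0.05. By that rule 17.0% of all tested genes were higher and 3.74% lower, so 2 of 5 higher and 0 of 5 lower is read against those shares. The lower calls, 13 genes here, were 23 after each array was centred on its median and 24 after scaling as well. The 5 genes were chosen with results of these arrays known, and their count is no independent support. Both calls rest on the deposited signs: with those of arrays 2 and 4 turned, KTR2 had a mean of 0.17 and ALG9 of -0.25, and neither passed (limma adjusted p = 0.979 and 0.974). Turning these arrays brings any gene with like ratios on every array near 0, so this outcome does not test the signs.

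KTR2 encodes a Golgi enzyme of the Kre2 family. Its gene means were 2.10, 1.95, 2.55 and 2.00 on arrays 1 to 4, all positive and close together, with array 3 the highest. The mean of 2.15 ± 0.27 (SD, n = 4) corresponds to 4.44-fold higher transcript in treated cells (limma adjusted p = 0.00148), and ranked 6 from the top among the 348 genes. Spot 303 read 2.10, 1.90, 2.53 and 1.98, and spot 304 read 2.11, 2.01, 2.57 and 2.02. The duplicate spots of KTR2 therefore never lay more than 0.11 apart, less than the spread between arrays. With the treated RNA in channel 2 the ratio averaged 2.33, and with it in channel 1 it averaged 1.98. The coefficient for channel order was 0.18 (limma adjusted p = 0.434), and the ratio was positive in either orientation.

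ALG9 encodes a mannosyltransferase that works on the dolichol-linked oligosaccharide inside the endoplasmic reticulum. Its gene means were 0.89, 1.15, 1.15 and 1.89 on arrays 1 to 4, positive on each, with array 4 the highest. The mean of 1.27 ± 0.43 (SD, n = 4) corresponds to 2.41-fold higher transcript in treated cells (limma adjusted p = 0.0109), rank 24 from the top. Spot 485 read 0.86, 1.20 and 1.21 on arrays 1 to 3 and has no value on array 4. Spot 486 read 0.93, 1.10, 1.09 and 1.89, so the high value of array 4 rests on 1 spot. On the 3 arrays with both spots they lay at most 0.12 apart. Without array 4 the mean of ALG9 was 1.06 and the call was kept (limma adjusted p = 0.0235). By channel order ALG9 averaged 1.02 with the treated RNA in channel 2 and 1.52 with it in channel 1.

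OCH1 encodes the Golgi enzyme that starts the outer chain of N-linked glycans. Its 2 spots gave unlike readings of the same RNA. Spot 63 read -3.585, 0.71 and 0.09 on arrays 1 to 3 and has no value on array 4. Spot 64 read 2.17, 0.22, 4.39 and 4.46 on arrays 1 to 4. The spots were 5.75 apart on array 1, where they also had opposite signs, 0.49 apart on array 2 and 4.303 apart on array 3. The gap on array 1 was the largest single gap of any of the 349 genes with 2 spots, whose largest gaps had a median of 0.16.

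**Figure D1:**
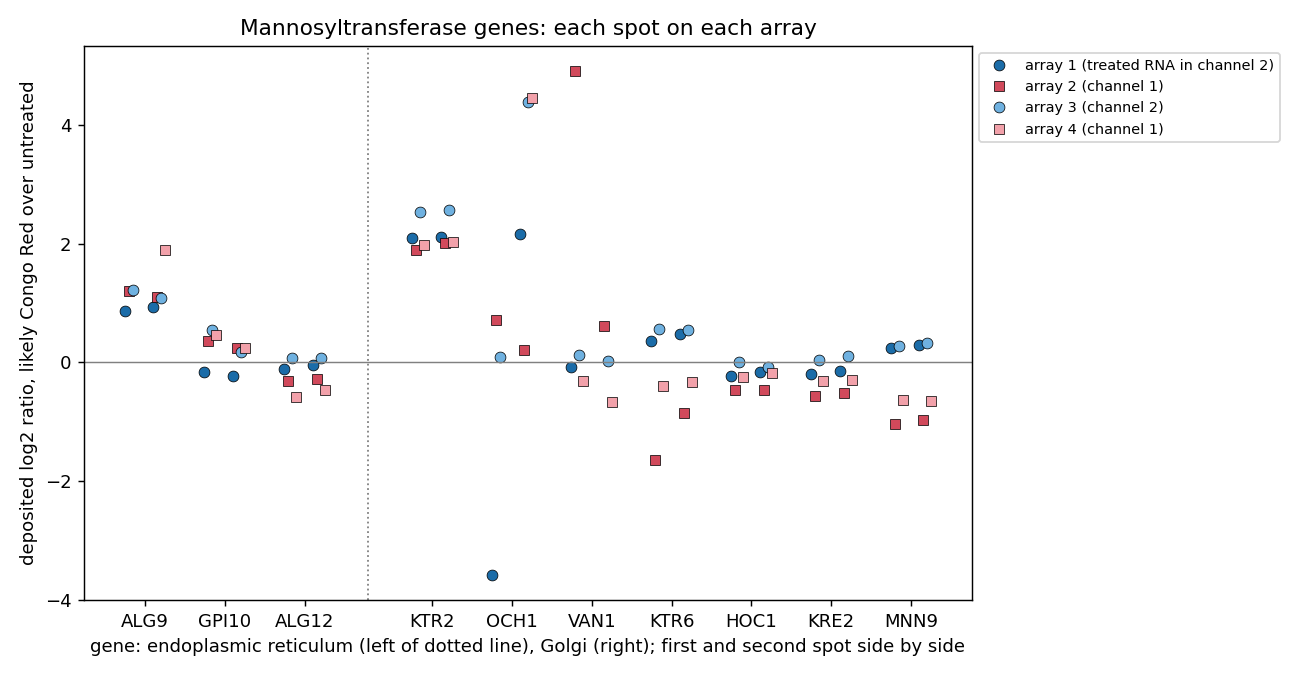
Deposited log2 ratio (vertical axis, likely Congo Red over untreated) of each spot of the 10 annotated mannosyltransferase genes, with circles for arrays 1 and 3 and squares for arrays 2 and 4. Genes of the endoplasmic reticulum stand left of the dotted line and Golgi genes right of it. The 8 KTR2 points lie between 1.90 and 2.57, while the 7 OCH1 points reach from -3.585 to 4.46.

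Averaged over its spots, OCH1 had gene means of -0.71, 0.46, 2.24 and 4.46 on arrays 1 to 4. The mean of 1.61 ± 2.25 (SD, n = 4) did not pass (limma adjusted p = 0.285), and its SD was the third largest among the 348 genes. Taken alone, spot 63 averaged -0.93 over 3 arrays and spot 64 averaged 2.81 over 4. The negative mean of spot 63 rests on array 1, without which it was 0.40 over arrays 2 and 3. In a fit of all spots singly, neither passed (limma adjusted p = 0.607 for spot 63 and 0.0895 for spot 64). No direction for OCH1 is given here.

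The decimals of OCH1 were also compared with ratios of whole numbers. On arrays 1 to 3, which are given to 4 decimals, 5 of its 6 values equal, to within 0.00006, log2 of a fraction whose numerator and denominator are whole numbers up to 40. Spot 63 equals the ratio of 1 to 12 on array 1 and of 18 to 11 on array 2. Spot 64 equals the ratio of 9 to 2 on array 1, of 36 to 31 on array 2 and of 21 to 1 on array 3. None of the 6 values of KTR2 and 1 of 6 of ALG9 (19 to 10, spot 486 on array 1) did so, against 22.0%, 26.5% and 19.0% of all spots with a value on arrays 1, 2 and 3. These shares cover ratios of every height, and how often a ratio of a given height matches by chance was not worked out. Intensities were not analysed here, and whether the OCH1 spots were read close to the background was not tested.

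**Figure D2:**
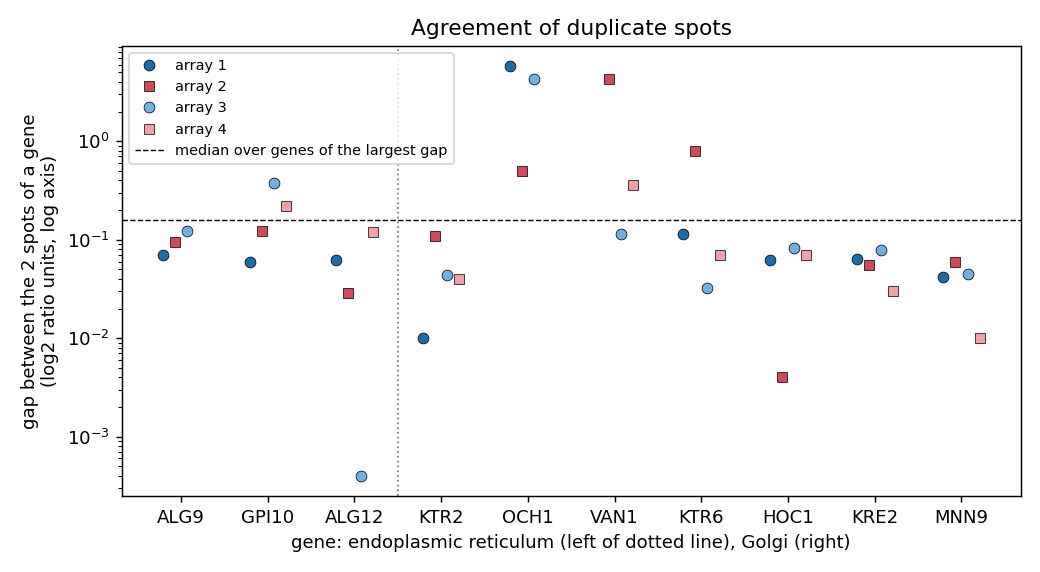
Gap between the 2 spots of each mannosyltransferase gene on each array with both values (vertical axis, log2 ratio units on a log axis), with the dashed line at 0.16, the median over genes of the largest gap. OCH1 on arrays 1 and 3 and VAN1 on array 2 lie above 4, and all KTR2 and ALG9 gaps lie below the line.

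MNN9 encodes a subunit shared by the mannan polymerases of the Golgi. Its gene means were 0.26, -1.004, 0.30 and -0.65 on arrays 1 to 4, positive with the treated RNA in channel 2 and negative with it in channel 1. Its duplicate spots lay at most 0.06 apart, so the reading on each array was repeated while the sign went with the channel order. The mean of -0.27 ± 0.66 (SD, n = 4) did not pass (limma adjusted p = 0.547). The coefficient for channel order of MNN9 was 0.55 (unadjusted p = 0.00350, limma adjusted p = 0.0508), just short of a threshold that 6.61% of tested genes passed for that coefficient. KRE2 encodes the Golgi enzyme that gives the family its name and extends O-linked and N-linked chains. Its gene means were -0.17, -0.54, 0.08 and -0.31, small and mostly negative, with a mean of -0.24 ± 0.26 (SD, n = 4; limma adjusted p = 0.329). KTR2 and KRE2 belong to 1 protein family, and the sources used here do not say whether their probes cross-hybridise. The values of these relatives differed in sign on 3 of 4 arrays.

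In the order of their means, KTR2 at 2.15 was followed by OCH1 at 1.61 and ALG9 at 1.27. Within an array, KTR2 exceeded ALG9 by 1.21, 0.80, 1.40 and 0.11 on arrays 1 to 4. The mean difference of 0.88 ± 0.57 (SD, n = 4) had one sign on 4 of 4 arrays (exact two-sided sign-flip permutation p = 0.13, the smallest that 4 arrays allow, and 0.375 adjusted over the 3 pairs compared). KTR2 minus OCH1 was 2.81, 1.49, 0.31 and -2.46 (mean 0.54 ± 2.24, SD, n = 4, exact permutation p = 0.625, adjusted 0.75). ALG9 minus OCH1 was 1.60, 0.69, -1.09 and -2.57 (mean -0.34 ± 1.86, SD, n = 4, exact permutation p = 0.75, adjusted 0.75). The sign of both differences from OCH1 changed between arrays. Read on the first spot of each gene, KTR2 exceeded OCH1 by 3.10 on average over 3 arrays (exact permutation p = 0.25), and read on the last spot it was lower by a mean difference of -0.63 over 4 arrays, so the place of OCH1 in this order is not settled.

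A longer list of 41 mannosyltransferases and their partner subunits, written from general knowledge, had 10 genes on the chip, 3 of 18 for the endoplasmic reticulum and 7 of 23 for the Golgi. In the endoplasmic reticulum 1 of 3 genes was higher (ALG9) and 0 lower, and in the Golgi 1 of 7 (KTR2) and 0 lower (limma, with no further gene of either compartment at an unadjusted p under 0.05). Together 2 of 10 were higher, against 17.0% of all tested genes, a share near the background. The ratio had one sign on every array for 3 of the 10 (KTR2, ALG9 and HOC1), against 42.0% of all tested genes on the arrays that measured them. The median of the 10 mean log2 ratios was 0.02, as was that of all tested genes.

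Besides ALG9, the endoplasmic reticulum was represented by ALG12 and GPI10. ALG12 (YNR030W) encodes a further mannosyltransferase of the dolichol-linked oligosaccharide. Its gene means were -0.08, -0.30, 0.07 and -0.52, and the mean was -0.21 ± 0.26 (SD, n = 4; limma adjusted p = 0.382), so 1 enzyme of that pathway passed and the other did not. GPI10 (YGL142C) encodes the enzyme that adds the third mannose of the GPI anchor. It had -0.19, 0.30, 0.36 and 0.35, positive on 3 arrays, with a mean of 0.21 ± 0.27 (SD, n = 4; limma adjusted p = 0.392).

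The further Golgi genes were VAN1, HOC1 and KTR6. VAN1 (YML115C) encodes a partner of Mnn9 in mannan polymerase I and had -0.08, 2.76, 0.07 and -0.49 (mean 0.57 ± 1.48, SD, n = 4; limma adjusted p = 0.555). The high array 2 of VAN1 comes from spot 833, which read 4.91 there, the ratio of 30 to 1, while spot 834 read 0.62. Without array 2 the mean of VAN1 was -0.17. HOC1 (YJR075W), for a subunit of mannan polymerase II, was negative on every array at -0.20, -0.47, -0.03 and -0.215, with a mean of -0.23 ± 0.18 (SD, n = 4; limma adjusted p = 0.278). KTR6 (YPL053C, also known as MNN6) encodes a mannosylphosphate transferase of the Kre2 family. It had 0.42, -1.24, 0.55 and -0.36, the same split of signs by channel order as MNN9, with a channel order coefficient of 0.65 (unadjusted p = 0.00887, limma adjusted p = 0.0754). Its mean was -0.16 ± 0.83 (SD, n = 4; limma adjusted p = 0.831), and 0.20 without array 2. On array 2 the KTR6 spots read -1.64 and -0.85, a gap of 0.80, where those of MNN9 lay at most 0.06 apart on any array.

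**Figure D3:**
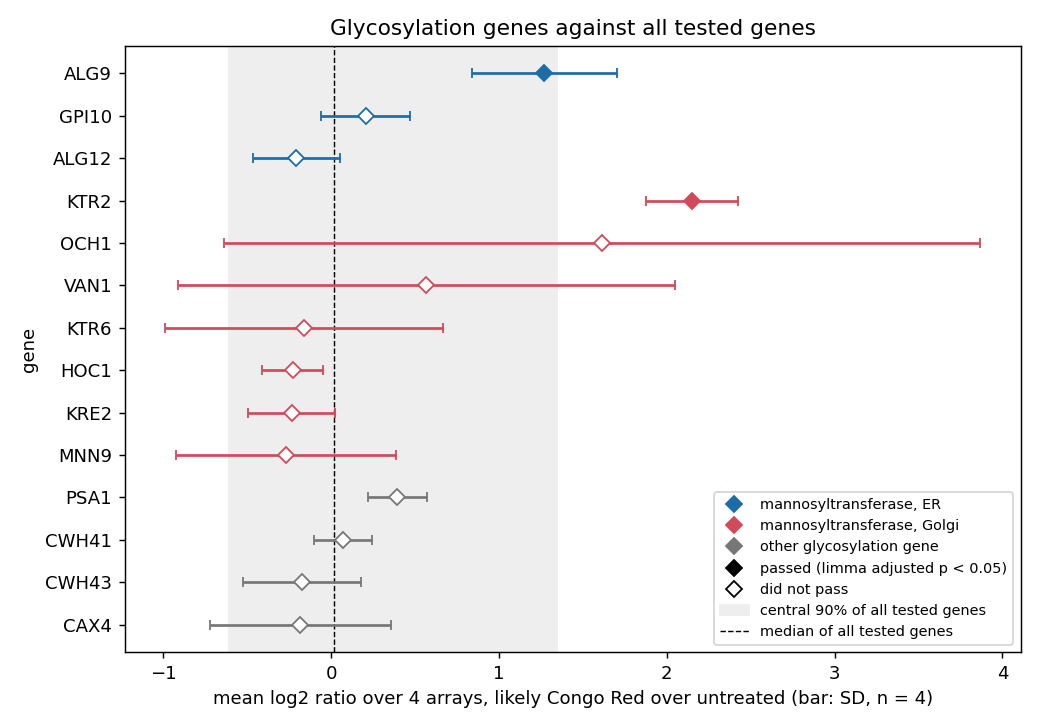
Mean log2 ratio over 4 arrays (horizontal axis, likely Congo Red over untreated, bars give the SD, n = 4) of the annotated glycosylation genes, with filled symbols for those past the test. The shaded band from -0.61 to 1.35 holds the central 90% of the means of all tested genes. KTR2 at 2.15 and OCH1 at 1.61 lie beyond the band, with a narrow bar for KTR2 and a wide one for OCH1, and ALG9 at 1.27 lies inside it near the upper edge.

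Set side by side by array, the median ratio of the 3 endoplasmic reticulum genes was -0.08, 0.30, 0.36 and 0.35 on arrays 1 to 4, and that of the 7 Golgi genes was -0.08, -0.47, 0.30 and -0.305. The endoplasmic reticulum median minus the Golgi median was -0.0025, 0.77, 0.06 and 0.66 (mean 0.37 ± 0.40, SD, n = 4). Over single spots in place of gene means it was -0.32, 0.77, 0.16 and 0.55 (mean 0.29 ± 0.48), with a negative value on array 1. The endoplasmic reticulum median was the higher one on arrays 2, 3 and 4 either way. Over gene means, it was the value of GPI10 on those arrays and of ALG12 on array 1. The Golgi median was the value of VAN1, HOC1, MNN9 and KRE2 on arrays 1 to 4 in turn. None of these genes passed the test. The difference was widest on arrays 2 and 4, the arrays with the treated RNA in channel 1, and array 3 has it in channel 2. No test was made of this difference, since few genes of each compartment are on the chip and the highest gene of the set, KTR2, belongs to the Golgi. The part of channel order in the difference was not tested.

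**Figure D4:**
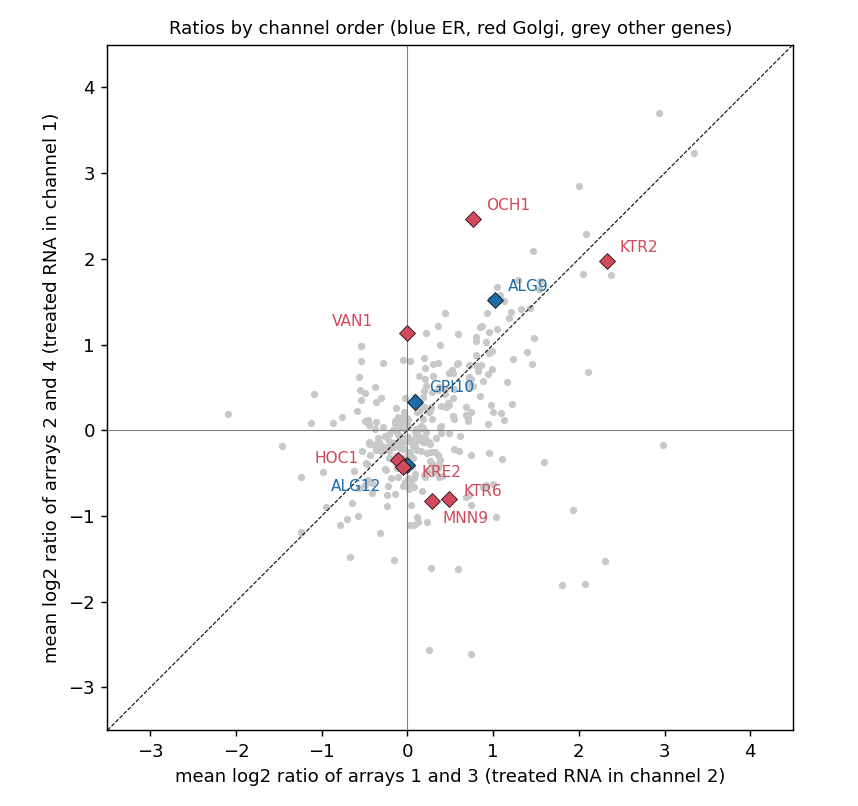
Mean log2 ratio of arrays 2 and 4 (vertical axis) against that of arrays 1 and 3 (horizontal axis) for the 328 genes with 4 values, with endoplasmic reticulum mannosyltransferases in blue, Golgi ones in red and the rest in grey. KTR2 (2.33 and 1.98 on the horizontal and vertical axes) and ALG9 (1.02 and 1.52) are positive in both orders, whereas MNN9 (0.28 and -0.82) and KTR6 (0.49 and -0.80) change sign between them.

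Of 32 other glycosylation genes written into a list, such as those for glucose addition, oligosaccharide transfer and sugar nucleotide supply, 4 were on the chip, and 0 were higher and 0 lower (limma), with 1 at an unadjusted p under 0.05. That gene was PSA1 (YDL055C), for the enzyme that makes GDP-mannose, the sugar donor. It had 0.32, 0.29, 0.66 and 0.31 on arrays 1 to 4, positive on each, with a mean of 0.39 ± 0.18 (SD, n = 4; limma adjusted p = 0.0865). With a term for channel order, a model in which 25.0% of all tested genes were higher, it passed (limma adjusted p = 0.0447), as it did after centring the arrays (0.0406) and after centring and scaling (0.0422). In the other 11 of 14 alternatives PSA1 did not pass, and with each array left out the limma adjusted p was 0.145 to 0.234. CWH41, for the glucosidase that begins the trimming of the transferred glycan, had a mean of 0.07 ± 0.17 (limma adjusted p = 0.765). CWH43, which remodels the lipid of GPI anchors, had a mean of -0.17 ± 0.35, and CAX4, which recycles the dolichol carrier, had -0.18 ± 0.54 (SD, n = 4 each; limma adjusted p = 0.532 and 0.657).

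The genes whose 4 ratios lay nearest to those of KTR2, by root mean square difference over the 4 arrays among 327 other genes with 4 values, were PRM5 (YIL117C) at 0.305, PST1 (YDR055W) at 0.58 and SLT2 (YHR030C) at 0.61. PRM5, a membrane protein gene, read 1.92, 2.12, 2.25 and 2.47, at about the height of KTR2. PST1, for a wall protein, read 1.33, 1.62, 1.77 and 1.86, and SLT2, for the cell integrity MAP kinase, 1.42, 1.66, 1.65 and 1.64, both lower than KTR2 on every array. Nearest to ALG9 were PCM1 (YEL058W), for an enzyme on the way to the chitin precursor, at 0.15, NFG1 (YLR042C) at 0.18 and PIR3 (YKL163W), for a wall protein, at 0.25. PCM1 read 0.81, 1.12, 1.06 and 1.62, within 0.27 of ALG9 on every array, and both were highest on array 4. Nothing lay close to the averaged values of OCH1, whose nearest gene, SPS2 (YDR522C), was 1.504 away, followed by ALG9 at 1.64 and FIT1 (YDR534C) at 1.70. Those OCH1 values average spots up to 5.75 apart and rest on 1 spot on array 4, so the distances carry that disagreement. These distances describe 4 arrays and were not tested.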

How the data were processed

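Per the labels, total RNA of treated and untreated cells shared each of 4 two-channel arrays. The deposited values are log2 ratios per spot, kept as the authors gave them. Base 2 was read from the values: 58, 56 and 36 values on arrays 1 to 3 equal, within 0.00006, log2 of a fraction of different whole numbers up to 10. The natural logarithm gives no more than 4 such values on an array and the decimal one 6. Array 4 is given to 2 decimals. The sources used here do not give the scanner, background correction, normalization or probe specificity. Array medians were 0.01, -0.13, 0.22 and 0.07.

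Of 896 spots, 724 have 1 gene, 10 several and 162 no name here. All 353 genes matched the R64 gene table, used for names only. Spots of a gene were averaged per array. Genes with at least 3 arrays were tested with limma 3.58.1 in R 4.3.3. The test was checked on simulated data with independent normal noise and no effect of channel order, so the check does not cover such an effect. Figures used matplotlib 3.10.9 in Python 3.11.15.

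Members, lists and tests were chosen with earlier results of these data known. Named genes were the members, all listed glycosylation genes on the chip, HOG1, ACT1 and the 3 nearest genes of KTR2, OCH1 and ALG9. Alternatives were centring, scaling, turning, channel order, missing values, single spots, variance, weights, a fold threshold of 1.5 and each array left out.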

Additional observations from a re-analysis of the deposited data

Results flagged for a closer look

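In 2 genes, 1 array lay apart from the other 3 by most of the range. GPI10 had a log2 ratio of -0.19 on array 1, against 0.30 to 0.36 on the others. PSA1 had 0.66 on array 3, against 0.29 to 0.32 on the others. Chance alone marks about 1 in 20 such groups, and 19 results were examined.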

How the results depend on the processing

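KTR2 and ALG9 passed in 13 of 14 alternatives, with log2 ratios of 2.02 to 2.22 and of 1.06 to 1.40 (limma adjusted p of 0.00022 to 0.0120 and of 0.00204 to 0.0450). The exception was turning the sign of arrays 2 and 4, where KTR2 had 0.17 (limma adjusted p = 0.979), ALG9 -0.25 (0.974), OCH1 -0.85 and ALG9 minus OCH1 0.60. So turned, 0 of 348 genes passed by limma (33 at an unadjusted p under 0.05), and MNN9 had 0.55, KTR6 0.65, ALG12 0.20, KRE2 0.19, HOC1 0.11, GPI10 -0.12, VAN1 -0.57 and CWH41 -0.06.

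With the first spot only, OCH1 had -0.93, ALG9 minus OCH1 2.02 and KTR2 minus OCH1 3.10, and with the last spot only, VAN1 had -0.01 and KTR2 minus OCH1 -0.63. These settings change the arrays too, since the first OCH1 spot has no value on array 4 and the last VAN1 spot none on array 1. Without array 4 alone, OCH1 averaged over both spots had 0.67 and ALG9 minus OCH1 0.40, and the parts of spot and array were not tested further. Leaving out each array in turn, OCH1 had 0.67 to 2.39, VAN1 -0.17 to 0.92, KTR6 -0.40 to 0.20, CWH41 -0.01 to 0.11, CAX4 -0.34 to 0.06, KTR2 minus OCH1 -0.22 to 1.54 and ALG9 minus OCH1 -0.99 to 0.40. OCH1 passed in none of its 14 alternatives. The endoplasmic reticulum median minus the Golgi median was 0.29 over single spots and 0.30 without OCH1 and VAN1, a choice made after seeing the data, against 0.37.

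The count of called genes, 72 of 348, was 121 with a term for channel order (the cause was not tested), and 38 to 52 with an array left out, where fewer arrays enter. Lower calls were 13, against 23 after centring and 24 after centring and scaling, while higher calls were 59, 60 and 64. No paired analysis was possible because there is 1 group, each array being already a pair. The number of arrays limits the precision, and without intensities dim or saturated spots could not be recognised.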
